A study of Mus musculus with 8 samples.

Results

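The 10 genes described here encode enzymes of mitochondrial fatty acid oxidation: Cpt1a, Cpt2, Acadvl, Acadm, Acads, Hadha, Hadhb, Hadh, Echs1 and Etfdh. They were chosen by name for their place in the pathway, by a rule that uses no peak value but with earlier results of these data known, out of 26180 mouse genes with a curated RefSeq transcript. For each gene, peaks of 4 lists (MOF, Rfx2, H3K4me3 and H3K27Ac) were read at the promoter and along the gene body. The promoter window began 1 kb before an annotated transcription start site (TSS) and closed 100 bp after it, and a gene counted as having a peak there when at least 1 bp of the peak lay in that window. Because Hadha and Hadhb start back to back, the 10 genes have 9 separate promoter regions.

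MOF is a histone acetyltransferase that acetylates lysine 16 of histone H4, and the study asked where it sits in the genome of skin cells. MOF was mapped by ChIPseq, which pulls down sheared, fixed chromatin. Rfx2, a transcription factor known for ciliary genes, and the histone marks were mapped by Cut&Run, in which an antibody tethers a nuclease to its target. H3K4me3 (trimethylation of histone H3 lysine 4) marks promoters, and H3K27Ac (acetylation of histone H3 lysine 27) marks active promoters and enhancers. All mice were wild type and were taken at P0.5 (postnatal day 0.5), total epidermis was the source of every library, and the groups differed in the antibody and its assay: 1 MOF library, 1 Rfx2 library and 1 library of each mark had a peak list, out of 8 libraries over 6 antibodies. The H4K16Ac, H3K4me1 and other H3K4me3 and H3K27Ac libraries were not used here. With 1 list for each antibody there is no replicate error and no test across replicates, so every count below describes these libraries. Whether epidermis of several newborns was pooled is not given in the sources used here.

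Fatty acids are activated outside the mitochondrial matrix, carried in as carnitine esters, and then shortened in a repeated cycle of dehydrogenation, hydration, a further dehydrogenation and thiolytic cleavage. Electrons from the first step pass through the electron transfer flavoprotein to the ubiquinone pool of the respiratory chain, while the third step yields NADH. Total epidermis is a mixture of basal, suprabasal and hair follicle cells with some other cell types, so a peak in part of the cells and a weaker peak in every cell cannot be told apart. H3K4me3 lay at the promoter of 7 of 10 epidermal markers and H3K27Ac at 6 of 10, and when windows reached 2.5 kb to both sides of a TSS both marks lay at 9 of 10, Krt1 being in neither list. Of 12 markers of other cell types, 3 had H3K4me3 at the promoter (Col1a2, Pdgfra and the melanocyte gene Pmel) and 1 had H3K27Ac (Pmel). In the wider windows these became 5 of 12 for H3K4me3 and 3 of 12 for H3K27Ac (Pecam1, Dct and Pmel).

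MOF lay at the promoters of 7 of the 10 genes: Cpt2, Acadm, Hadha, Hadhb, Hadh, Echs1 and Etfdh. Over all annotated genes the share was 23.7% (6195 genes), and among the 14132 genes with H3K4me3 at the promoter it was 42%. Since Hadha and Hadhb share a MOF peak, the 7 genes hold 6 MOF peaks over 9 promoter regions. Cpt1a, Acadvl and Acads had none. H3K4me3 lay at all 10 promoters, against 54% of all genes, and H3K27Ac at all 10, against 44.1%. When the centre of the peak had to lie in the window, the counts were 4 for MOF, 3 for H3K4me3 and 5 for H3K27Ac, beside 14.7%, 25.5% and 26.2% of all genes. Rfx2 lay at 0 of 10, where the list as a whole reached 1.21% of genes (317). The members thus fell into 2 patterns. MOF with both marks and no Rfx2, seen at 7 members, held for 20.3% of all genes (5306). Both marks without MOF or Rfx2, seen at 3 members, held for 21.6% (5666). Genes with both marks and no Rfx2 were thus split nearly evenly between those with and those without MOF.

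**Figure D1:**
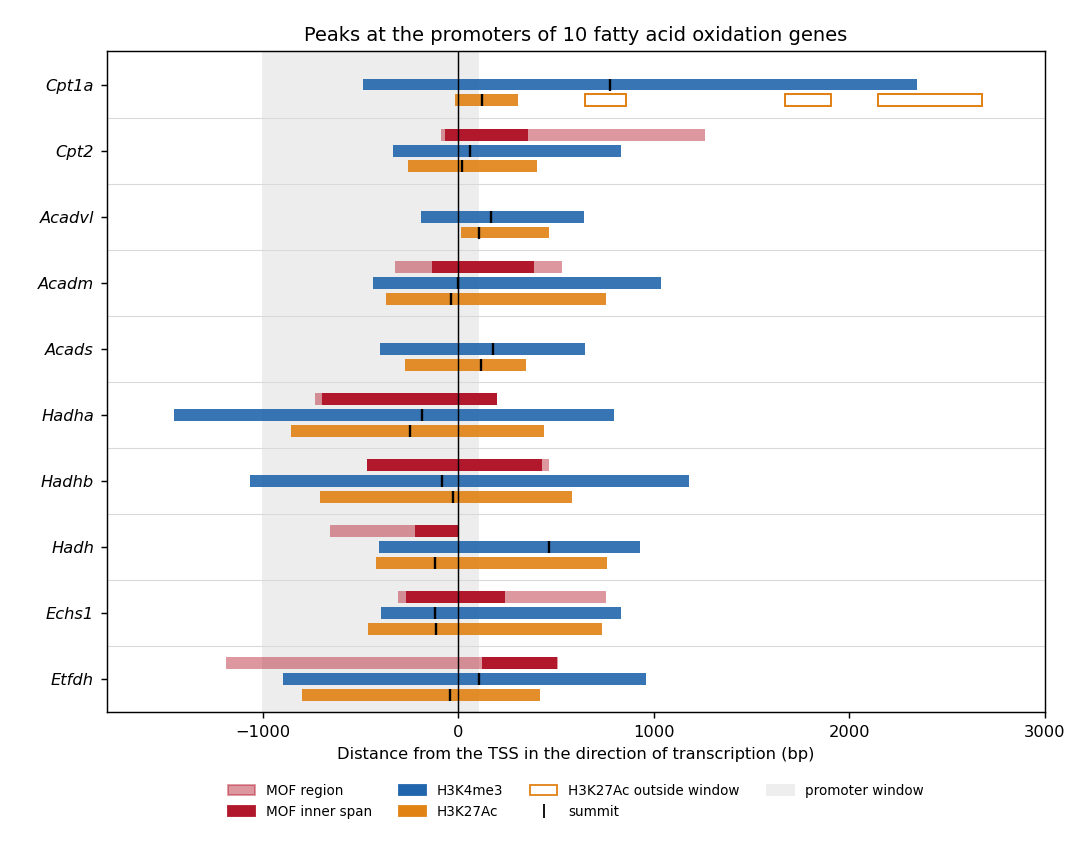
Peaks of MOF, H3K4me3 and H3K27Ac at the 10 promoters, drawn to scale as distance from the TSS in bp along the direction of transcription, with the promoter window shaded and summits as black ticks. The Hadha and Hadhb rows show the same peaks from either side, and the rows of Cpt1a, Acadvl and Acads hold no MOF bar.

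The carnitine shuttle split. Cpt1a, the outer membrane carnitine palmitoyltransferase that commits long-chain fatty acids to oxidation (chr19:3323301-3385733, plus strand, 19 exons), had no MOF peak, and the nearest one lay 123982 bp downstream. Its H3K4me3 peak was 2835 bp wide, from 489 bp upstream of the TSS to 2345 bp downstream in intron 1, and its fold enrichment over background was 4.21. That width was at percentile 99.4 of the H3K4me3 list, and the fold was at percentile 15.1. The summit lay 778 bp downstream, in intron 1. Its promoter H3K27Ac peak was the narrowest and lowest of the members, at 322 bp and 3.8-fold. The 250 bases before the Cpt1a TSS are shown as the upstream sequence of the member with the widest H3K4me3 peak. Capitals mark matches to the Sp1 letters GGGGCGGGG, here on the strand opposite to the gene, from −77 to −69 and from −61 to −53 (the TSS is position 0).
Cpt1a, chr19:3323051-3323300 (plus strand): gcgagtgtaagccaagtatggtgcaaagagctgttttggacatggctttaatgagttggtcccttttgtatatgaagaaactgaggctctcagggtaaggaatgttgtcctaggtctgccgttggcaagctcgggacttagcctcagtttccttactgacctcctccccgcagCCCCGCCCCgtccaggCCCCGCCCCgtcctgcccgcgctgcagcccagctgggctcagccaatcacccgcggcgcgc
Cpt2, the inner membrane enzyme that turns acylcarnitines back into acyl-CoA (chr4:107903982-107923589, minus strand, 5 exons), had all 3 peaks. Its MOF region was 1354 bp wide and ran from −90 to 1263, so 6.65% of it lay upstream of the TSS and the rest in exon 1 and intron 1. Its score of 575 was at percentile 49.1 of the MOF list. The score has no stated scale, so it only ranks MOF peaks against each other. H3K4me3 reached 12.2-fold over 1165 bp and H3K27Ac 8.93-fold over 660 bp, with summits 58 and 17 bp downstream of the TSS. Of the MOF region, 68.2% was shared with the H3K4me3 peak and 36.2% with the H3K27Ac peak. Its upstream bases are shown because they hold the only exact match among the members to the ETS letters CCGGAAGT, in capitals, from −13 to −6. The match lies within the inner span of the MOF region, which runs from −69 to 357.
Cpt2, chr4:107923590-107923839 (minus strand): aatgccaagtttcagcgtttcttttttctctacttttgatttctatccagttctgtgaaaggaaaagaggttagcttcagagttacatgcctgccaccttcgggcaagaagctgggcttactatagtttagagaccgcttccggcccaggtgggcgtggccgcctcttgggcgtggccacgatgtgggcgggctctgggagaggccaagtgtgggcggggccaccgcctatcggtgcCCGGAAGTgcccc

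The inner span is a narrower interval that each line of the MOF list gives inside its region. It had a median of 242 bp, against 562 bp for the regions, and how it was set is not given in the sources used here.

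Of the 3 chain-length dehydrogenases, MOF lay at the medium-chain gene and not at the other two. These flavoenzymes carry out the first dehydrogenation of the cycle on acyl-CoA of decreasing length. Acadm (chr3:153922353-153944643, minus strand, 12 exons) had a MOF region of 850 bp from −322 to 527, with a score of 903 at percentile 83.3 of the list. The region was 100% inside the H3K4me3 peak (1475 bp, 8.12-fold) and 100% inside the H3K27Ac peak (1125 bp, 8.21-fold). Both marks had their summits just upstream of the TSS, at −4 and −37. Acadvl, the very long-chain enzyme (chr11:70010183-70015428, minus strand, 20 exons over only 5246 bp), had the narrowest H3K4me3 peak of the members, 836 bp at 10.5-fold. Its H3K27Ac peak of 451 bp (7.4-fold) began 12 bp downstream of the TSS and ended in intron 2, so it was the only mark peak among the members that did not cover the TSS. Acads, the short-chain enzyme (chr5:115110299-115119346, minus strand, 10 exons), had the highest H3K4me3 fold of the members, 13.4 over 1048 bp, at percentile 96.6 of the list. Its H3K27Ac peak of 618 bp reached 8.91-fold. Absence of MOF therefore went with low H3K4me3 fold at Cpt1a and with high fold at Acads.

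For the promoters of Acadvl and Acads, the nearest MOF region each overlapped an Rfx2 peak and both marks. Near Acadvl it lay 5787 bp upstream, inside the oppositely oriented gene Dlg4, whose TSS is 1775 bp from that of Acadvl. It had a score of 542, and its Rfx2 peak had a fold of 7.27. Near Acads it lay 37836 bp upstream at the promoter of Mlec, with a score of 486 and an Rfx2 fold of 5.16. Both are far outside the windows used here, and neither was assigned to a member. At Cpt1a, the remaining member without MOF, the nearest MOF region (score 375) overlapped no peak of the other lists. These neighbours were looked at after the lists had been examined, and the share of all MOF regions that overlap Rfx2 is not given here. Of the other members, Echs1 lay nearest to an Rfx2 peak, at 766 kb. The upstream bases of Acadm and Acadvl are shown because their 300-base windows around the TSS, described further on, had the lowest CpG ratios of the 10 although one has MOF and the other does not. Capitals in Acadm mark the NRF1 letters GCATGCGC, from −158 to −151. Acadvl held no match to any searched motif.
Acadm, chr3:153944644-153944893 (minus strand): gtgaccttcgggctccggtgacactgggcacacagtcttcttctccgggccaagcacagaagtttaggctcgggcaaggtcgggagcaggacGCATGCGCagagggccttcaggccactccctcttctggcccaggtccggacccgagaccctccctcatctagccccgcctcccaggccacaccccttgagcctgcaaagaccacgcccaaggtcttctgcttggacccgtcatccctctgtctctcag
Acadvl, chr11:70015429-70015678 (minus strand): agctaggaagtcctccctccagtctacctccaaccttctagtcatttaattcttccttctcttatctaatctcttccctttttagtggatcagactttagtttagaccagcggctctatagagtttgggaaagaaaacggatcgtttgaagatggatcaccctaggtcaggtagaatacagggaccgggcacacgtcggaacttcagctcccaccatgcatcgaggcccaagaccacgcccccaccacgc

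All 4 members that act in the following steps had MOF, Hadha and Hadhb through a shared region. MOF lay at 23.7% of all promoters, and at 42% of those that also carried H3K4me3. The count covers these members only, since MOF lay at 5 of 10 genes in the list of auxiliary enzymes and thiolases described further on. The mitochondrial trifunctional protein, whose alpha subunit Hadha hydrates and dehydrogenates long-chain substrates and whose beta subunit Hadhb is the thiolase, is encoded by genes that start 273 bp apart on opposite strands (Hadha at chr5:30119423-30154980, minus strand, 20 exons; Hadhb at chr5:30155253-30184593, plus strand, 16 exons). A single MOF region of 932 bp covered both TSSs and reached into intron 1 on either side. Its score of 1046 was at percentile 89.5. It lay wholly inside the H3K4me3 peak of 2248 bp and the H3K27Ac peak of 1290 bp. Among promoter peaks of their lists both marks were wide and of low fold there, 5.22 for H3K4me3 (percentile 14.6, with the width at percentile 94.3) and 5.32 for H3K27Ac (percentile 27.2, with the width at 83.3). In the whole H3K27Ac list, 5.32 was at percentile 58.9. The H3K4me3 and H3K27Ac summits lay between the TSSs, 85 and 26 bp upstream of Hadhb. The 272 bases between the TSSs are shown in full because the MOF inner span covers all of them. They hold 18 CpG and none of the searched motifs, so no base is in capitals.
Hadha and Hadhb, chr5:30154981-30155252 (plus strand): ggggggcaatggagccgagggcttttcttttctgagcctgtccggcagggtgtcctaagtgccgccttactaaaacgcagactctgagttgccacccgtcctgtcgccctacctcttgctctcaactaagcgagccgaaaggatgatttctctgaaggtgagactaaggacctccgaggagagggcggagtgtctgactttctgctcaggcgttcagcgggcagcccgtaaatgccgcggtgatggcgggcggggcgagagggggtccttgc
Hadh, the 3-hydroxyacyl-CoA dehydrogenase for medium and short chains (chr3:131233419-131272101, minus strand, 8 exons), differed from the other members in where MOF lay. Its MOF region of 657 bp ran from −657 to −1, wholly upstream of the TSS, with a score of 638. The H3K4me3 summit lay on the other side, 464 bp downstream in intron 1 (1335 bp, 8.67-fold), and the H3K27Ac summit 120 bp upstream (1182 bp, 8.65-fold). Of the MOF region, 61.6% was shared with H3K4me3 and 64.4% with H3K27Ac. Its inner span is shown because it is the part of the region next to the TSS, from −221 to −3. Capitals mark the Sp1 letters on the strand of the gene, from −53 to −45, at the end of a run of guanines, and a further match lies just past the TSS on the other strand, from 4 to 12.
Hadh MOF inner span, chr3:131272104-131272322 (minus strand): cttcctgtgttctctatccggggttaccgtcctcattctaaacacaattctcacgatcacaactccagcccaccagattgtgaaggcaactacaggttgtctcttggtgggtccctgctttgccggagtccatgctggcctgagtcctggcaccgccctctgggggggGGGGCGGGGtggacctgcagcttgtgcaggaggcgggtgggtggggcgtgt
Echs1, the short-chain enoyl-CoA hydratase (chr7:140105710-140116421, minus strand, 8 exons), had the lowest MOF score of the members, 565, at percentile 43.3 of the list. Its MOF region of 1064 bp ran from −307 to 756 and was 100% inside the H3K4me3 peak (1227 bp, 9.74-fold). Its H3K27Ac fold of 9.56 over 1199 bp was the highest of the members, at percentile 95.5 of that list. The summits of both marks nearly coincided, at −119 and −113.

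Etfdh, the oxidoreductase that passes electrons from the flavoprotein to ubiquinone (chr3:79603788-79628767, minus strand, 13 exons), had the widest and highest MOF region of the members. It was 1700 bp wide, with a score of 1419 at percentile 95. It ran from −1191 to 508, with 70.1% of it upstream, where it also covered the TSS of the divergent gene 4930579G24Rik, 312 bp away. MOF, H3K4me3 (1860 bp, 7.49-fold) and H3K27Ac (1218 bp, 9.22-fold) at this promoter are therefore shared with that gene. The inner span lay in the Etfdh gene, from 123 to 505, and did not cover the TSS. The upstream bases are shown because NRF1 letters occur on both strands in overlapping matches, from −128 to −119 in capitals.
Etfdh, chr3:79628768-79629017 (minus strand): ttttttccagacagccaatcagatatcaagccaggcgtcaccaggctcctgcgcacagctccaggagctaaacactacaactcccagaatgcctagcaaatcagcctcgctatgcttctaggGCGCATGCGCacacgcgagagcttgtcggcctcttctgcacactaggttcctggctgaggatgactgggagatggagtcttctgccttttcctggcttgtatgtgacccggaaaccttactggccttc

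Taking the 6 MOF peaks, scores ran from 565 to 1419 with a median of 770, against 651 for the 5163 MOF peaks at promoters, and 3 of 6 were above that value. Widths ran from 657 to 1700 bp with a median of 998 bp, against 983 bp. Among MOF promoter peaks they ran from percentile 34.3 to 95.3 by score and from 26.6 to 85.8 by width. The region covered the TSS at 6 of the 7 genes with MOF, Hadh being the exception, and at 85.6% of all genes with MOF. The inner span covered it at 5 of 7, against 52%. The 9 H3K4me3 peaks had a median fold of 8.67 (4.21 to 13.4) and a median width of 1335 bp, beside 8.12 and 1257 bp for the 12308 H3K4me3 peaks at promoters. The 9 H3K27Ac peaks had a median fold of 8.65 (3.8 to 9.56), beside 6.64 over 9959 promoter peaks, and 7 of 9 were above it, those of Cpt1a and of Hadha with Hadhb being lower. A rank places each peak within its own list only, since heights of different antibodies have no common scale.

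**Figure D2:**
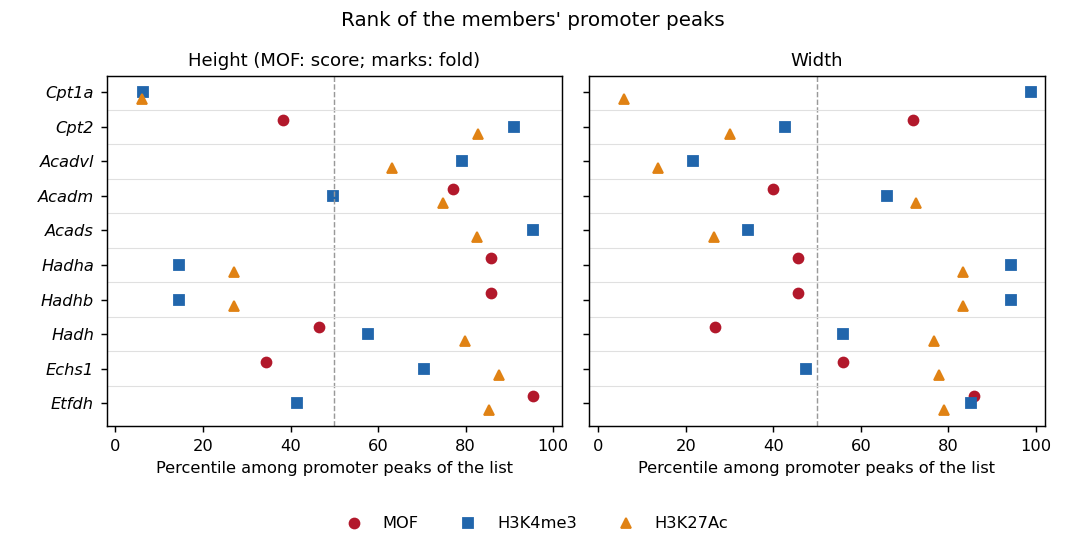
Percentile of each member's promoter peak among the promoter peaks of its list, by height (left: score for MOF, fold enrichment for the marks) and by width (right), with the median dashed. MOF ranks run from Echs1 (34.3) to Etfdh (95.3) by height, and Cpt1a combines percentile 98.9 of H3K4me3 width with percentile 6.4 of H3K4me3 height.

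The H3K27Ac peaks of the members without MOF were narrower than those of the members with MOF, with no overlap between them. Without MOF they were 322 bp (Cpt1a), 451 bp (Acadvl) and 618 bp (Acads) wide. The Cpt1a value is the first of 4 separate H3K27Ac calls that overlap its single H3K4me3 peak, the others being 208, 238 and 528 bp wide, so it is no measure of the whole acetylated stretch there. With MOF, the 6 peaks ran from 660 bp (Cpt2) to 1290 bp (Hadha and Hadhb), with a median of 1190 bp. Over all genes with both marks at the promoter, the median H3K27Ac width was 951 bp with MOF (4595 peaks) and 813 bp without (5152 peaks). That gap was smaller and in the same direction. The widths ran from 199 to 2702 bp with MOF and from 199 to 2955 bp without. H3K4me3 widths did overlap among the members: 836, 1048 and 2835 bp without MOF, and 1165 to 2248 bp with it. Over all genes the median H3K4me3 width was 1402 bp with MOF and 1150 bp without, and the median fold was 8.23 and 8.04. This comparison was made after the values had been seen.

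Among the members, wider H3K4me3 peaks were lower. Fold enrichment decreased with width from Acads (1048 bp, 13.4), Cpt2, Echs1, Hadh, Acadm and Etfdh to Hadha with Hadhb (2248 bp, 5.22) and Cpt1a (2835 bp, 4.21), Acadvl alone being both narrow and below Acads and Cpt2. Spearman's rho was −0.95 over the 9 peaks, which all come from 1 library, and −0.15 over the 12308 promoter peaks. Over all promoter peaks wider than 1000 bp, as 8 of the 9 are, the fold also decreased with width, from a median of 9.79 at 1000 to 1500 bp to 7.74 at 1500 to 2000 bp, 6 at 2000 to 2500 bp and 4.53 above 2500 bp. The trend is therefore not particular to the members. Of the 344 promoter peaks wider than 2500 bp, the class of Cpt1a, 60.8% belonged to a gene with MOF at its promoter, so Cpt1a without MOF was in the smaller part of its class. In the class from 1000 to 1500 bp, which holds Acads, Cpt2, Echs1, Hadh and Acadm, that share was 43.6%.

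**Figure D3:**
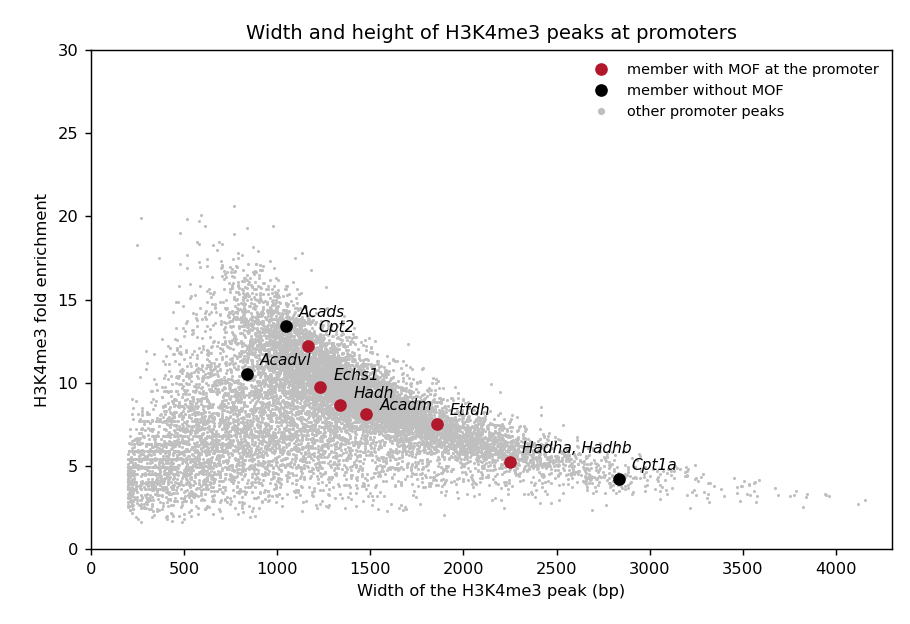
Width (bp) and fold enrichment of H3K4me3 peaks at promoters, each grey point being 1 of 12308 peaks, with the members in red where MOF lay at the promoter and in black where it did not. The members run from Acads at 13.4-fold down to Cpt1a at 2835 bp and 4.21-fold, and the black points lie at both ends of that run.

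Away from the promoters, the members held no MOF or Rfx2 peak, 2 H3K4me3 peaks and 7 H3K27Ac peaks. A gene body peak was one whose centre lay inside the gene without touching its promoter window. No MOF peak lay in the body of any member, over 258 kb in all, where the rate of all genes (0.0615 per 10 kb) would give 1.59 peaks. Over all genes, 17.1% had MOF in the body. Rfx2 was likewise absent, with 0.0116 peaks at the rate of all genes. H3K4me3 had 2 body peaks, which is near the 2.04 of the general rate and put 2 of 10 members beside 19.8% of all genes. They lay in intron 13 of Hadha (29.3 kb from the TSS) and in intron 6 of Hadhb (15.2 kb), each at 4.51-fold. H3K27Ac had 7 body peaks in 3 of 10 members, against 20.2% of all genes, where the general rate would give 2.86 peaks. That is 0.271 per 10 kb, against 0.111 over all genes and 0.139 over genes with H3K4me3 at the promoter.

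Cpt1a held 5 of those 7 peaks. Its first 3 lay in intron 1 at 0.753, 1.79 and 2.41 kb, each overlapping the wide H3K4me3 peak, so that H3K27Ac formed 4 short separate calls across the single H3K4me3 domain. The other two lay at 10.9 kb in intron 1 and at 54.2 kb in intron 14, the latter the highest of them at 4.96-fold. Hadhb had 1 in intron 7 (18.4 kb, 4.04-fold) and Hadh 1 in intron 1 (6.55 kb, 4.62-fold), neither with H3K4me3. Without Cpt1a, the 9 other genes had 2 H3K27Ac body peaks over 195 kb, or 0.102 per 10 kb, which is near the rate of all genes. All 7 were among the lower 50% of the H3K27Ac list by q-value.

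**Figure D4:**
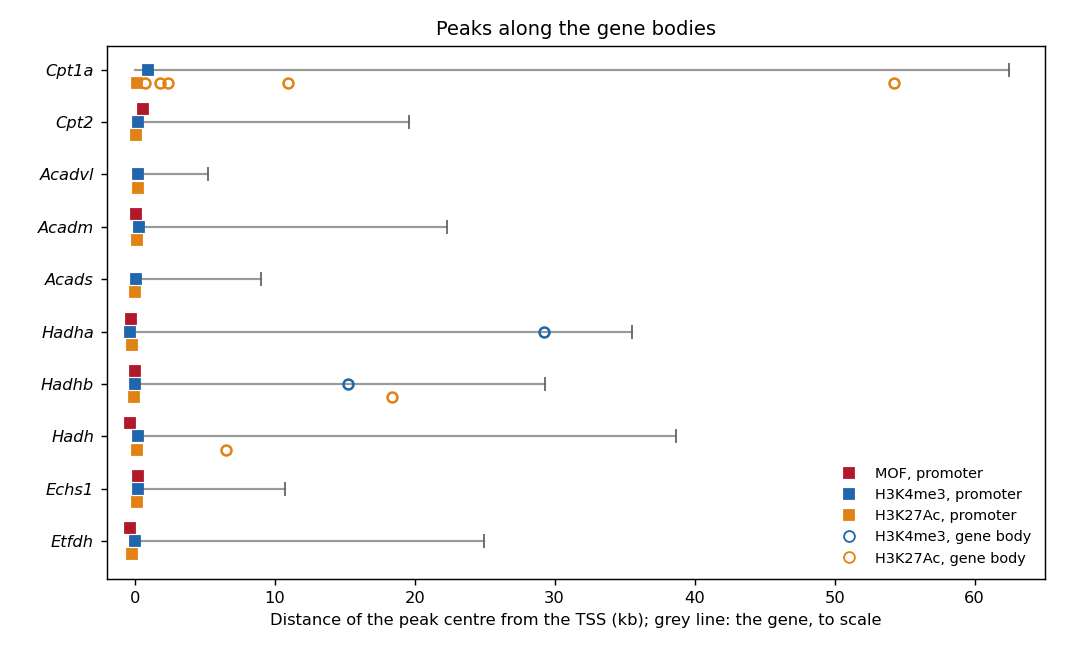
Centres of peaks along each member in kb from the TSS (grey line: the gene, ending at the tick), with promoter peaks as filled squares and gene body peaks as open circles. MOF squares sit only at the starts of 7 genes, and 5 of the 7 open H3K27Ac circles lie in Cpt1a, at 0.753 to 54.2 kb.

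Promoter sequence was compared over 300-base windows from 250 before to 50 after the TSS (RefSeq, GRCm38.p6), for which all 10 members were matched among 32851 windows. The observed-to-expected CpG ratio, which is near 1 where CpG has not been depleted, had a median of 0.685 over the members, 0.384 over all windows and 0.757 over windows with H3K4me3 at the promoter. It was highest at Hadhb (0.878) and lowest at Acadm (0.459) and Acadvl (0.476). Among all windows with H3K4me3 the median was 0.8 with MOF and 0.718 without. Within the members the medians stood in the same order, 0.691 over the 7 with MOF and 0.579 over the 3 without, but single genes overlapped: Acadm had MOF at 0.459 and Cpt1a had none at 0.763. The motif letters were searched on both strands. NRF1 letters occurred at 2 members, Acadm and Etfdh, against 5.06% of H3K4me3 windows and 2.71% of all windows. ETS letters occurred at 1 (Cpt2), against 7.74% and 3.89%, and the Sp1 letters at 3 (Cpt1a, Acads and Hadh), against 21.9% and 11.4%. Of the windows with Sp1 letters, 2 belonged to genes without MOF. No member held the YY1 letters AAGATGGC, found in 4.11% of H3K4me3 windows, the ERR letters TCAAGGTCA (0.291%) or the TATA letters TATAAA (6.81%). The DR1 element AGGTCANAGGTCA, the kind read by PPAR receptors, had no exact match at a member, and only Echs1 held a match with up to 2 mismatches, from −83 to −71, against 3.86% of all windows. A match is a description of letters, and its absence says only that these letters are not in this window.

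Another gene started within 1 kb on the opposite strand at 3 of 10 members (Hadha, Hadhb and Etfdh). Hadha and Hadhb are each other's neighbour. Such a neighbour was found at 20% of genes with H3K4me3 and 28.3% of genes with both MOF and H3K4me3. The 3 members all had MOF, with a single peak shared by Hadha and Hadhb. Of the 2820 genes with such a neighbour and H3K4me3 at the promoter, 1681 also had MOF.

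The wider pathway was read in 5 lists of 56 genes. Both marks were common there, H3K4me3 at 51 and H3K27Ac at 45 promoters, and MOF lay at 17 of 56, or 30.4%, which is close to the 23.7% of all genes. Of the 51 with H3K4me3, 33.3% had MOF, below the 42% of all such genes. No gene of these lists had Rfx2. In the list of activation and the carnitine shuttle MOF lay at 3 of 10 promoters, with the highest score of all pathway genes at Slc25a20, the translocase that carries acylcarnitines between Cpt1a and Cpt2 (1773). The other two were the acyl-CoA synthetase Acsl1 (638) and the carnitine acetyltransferase Crat (462). Acsl6 and the muscle isoform Cpt1b had no H3K4me3 at the promoter. Among the other acyl-CoA dehydrogenases and the electron transfer flavoprotein it lay at 4 of 11: Acad12 (865), Acad11 (642), Acadsb (589) and the flavoprotein subunit Etfa (610), but not at the partner subunit Etfb.

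Among auxiliary enzymes and thiolases, MOF lay at 5 of 10, including the enoyl-CoA isomerase Eci1 (581), the thioesterase Acot2 (548), the acetyl-CoA acetyltransferase Acat1 (529), the thiolase Acaa2 (491) and Acot13 (357). In peroxisomal oxidation it lay at 4 of 14, among them Scp2 (736) and Decr2 (683), and Acox2 had no H3K4me3. Among regulators it lay at 1 of 11, the nuclear receptor Ppara (462). The acetyl-CoA carboxylases Acaca and Acacb, which make the malonyl-CoA that inhibits Cpt1a, had no H3K4me3 at the promoter window. Each number in parentheses is the MOF score. The share of MOF was thus highest in the 10 members, and no test of the differences between lists was possible with 1 MOF library.

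**Figure D5:**
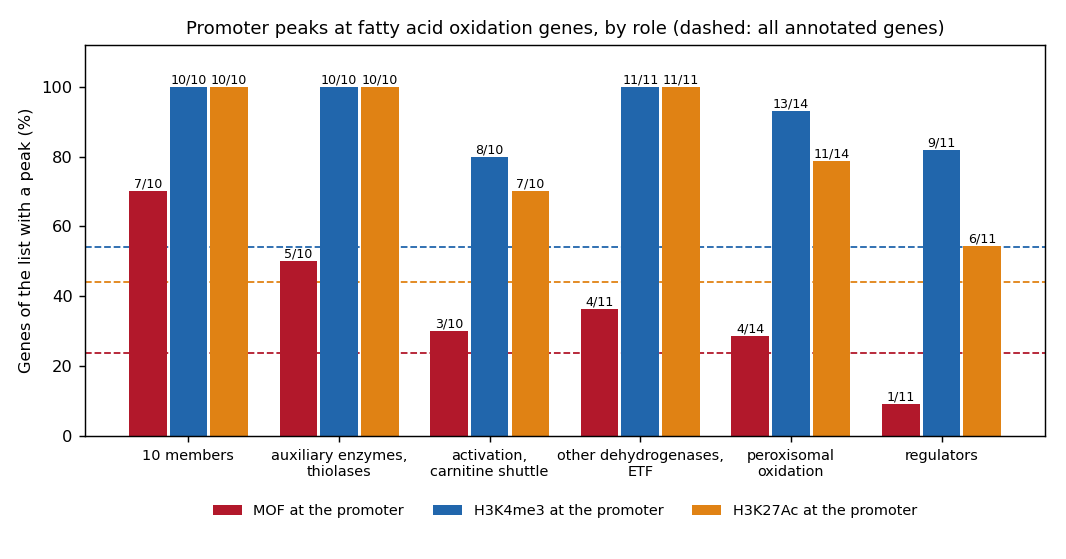
Share of genes (%) with MOF, H3K4me3 or H3K27Ac at the promoter in the 10 members and in 5 lists of related genes, with the counts above the bars and the share over all 26180 genes as dashed lines in the same colours. MOF runs from 7 of 10 members to 1 of 11 regulators, around its general share of 23.7%.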

How the data were processed

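Peak lists deposited by the authors were used as given. Per the labels and the study's methods, the authors aligned reads to mm10 with Bowtie2 and called peaks with MACS2 for each library separately. Their MOF calls used no fragment model and the automatic limit on duplicates, and their Cut&Run calls used paired fragments. A control library is not given in the sources used here. The deposited Rfx2, H3K4me3 and H3K27Ac lists hold a fold enrichment (a linear ratio), a −log10 p-value and a −log10 q-value for each peak. The lowest deposited −log10 q-value was 1.32, 1.35 and 1.32. The deposited MOF list holds regions with a score of unstated scale and is longer than the number of peaks the authors counted, so it may be an unfiltered call. The name of the H3K4me3 list lacks a repeat mark, so its source among the 2 H3K4me3 libraries is uncertain. The lists held 17546 MOF, 337 Rfx2, 27039 H3K4me3 and 30736 H3K27Ac peaks. The lists themselves give no read counts, so no interval was computed. The study states mapped reads for each library: of the 4 used here, Rfx2 was the shallowest and H3K27Ac the deepest, and the lists were used without adjusting for this.

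Here, peaks were placed on GRCm38.p6 with TSSs of curated RefSeq transcripts. No peak ended beyond a chromosome, and a curated TSS lay within 1 kb for 53.2% of H3K4me3 summits, or 4.51% once summits were shifted by 50 kb. A peak in a gene body had its centre there and did not overlap the promoter window. Percentiles among promoter peaks give the share of those peaks at or below a value. Percentiles of a whole list are ranks in which tied peaks take their mean rank. Members and gene lists were chosen with earlier results of these data known. Named are all members, genes starting within 1 kb of one or sharing its promoter peak, and of each pathway list the 3 highest MOF scores and the genes without H3K4me3. An item among these is counted and not reported by itself. Dlg4, Mlec, Acaa2, Acot13, Acadsb, Etfb and the marker genes were named after their values were seen. Overlap calls and the motif search were tested on simulated data, the former against bedtools (2.31.1). Alternatives were other windows, the peak centre, the upper 50% of each list by q-value (MOF by score), the 5'-most TSS, a minimum overlap of 50%, and, added after seeing the data, GENCODE M21 starts, the MOF inner span and leaving out Cpt1a. Python (3.11.15) with pandas (2.3.3) and pysam (0.24.0) was used.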

Additional observations from a re-analysis of the deposited data

How the results depend on the processing

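Of 34 recomputed counts whose reported value was above 0, 26 stayed within 1.5 times that value. The 11 recomputed counts of a reported 0 also gave 0, which stricter settings could not have changed. MOF lay at the same 7 members with windows of 500 bp, 1 kb and 2.5 kb on either side of the TSS, with the 5'-most TSS and with GENCODE M21 starts. When the centre of the peak had to lie in the promoter window, MOF remained at 4 members, H3K4me3 at 3, H3K27Ac at 5 and overlapping MOF and H3K4me3 at 3. The shares over all genes fell as well under that setting, to 14.7% for MOF, 25.5% for H3K4me3 and 26.2% for H3K27Ac. With the upper 50% of peaks, MOF stayed at 5 members, losing Cpt2 and Echs1, beside 14.6% of all genes, and gene body peaks fell to 0 for H3K4me3 and 0 for H3K27Ac. H3K27Ac body peaks fell to 4 when peaks within 2.5 kb of the TSS were left out and to 2 without Cpt1a. With the MOF inner span alone, Etfdh was lost and 6 members remained, beside 20.7% of all genes. Depth differed between the libraries, the Rfx2 library being the shallowest of the 4, so a missing peak was not detected in these lists rather than shown to be absent. No paired analysis was possible because a single list per antibody was used and groups were not compared by a test.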
